A study of Homo sapiens with 22 samples.

Results

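The regions described here are stretches of chromatin carrying H3R2me2a, asymmetric dimethylation of arginine 2 of histone H3, that the authors put in their enhancer class although they lay inside the window around an annotated transcription start. They were taken from the enhancer list by its position column (value tss, with a start window of 1250 bp in the file headers) and kept if their coordinates were found in cluster II or cluster III. The short arm of chromosome 12, below 36 Mb, which is often gained in germ cell tumours, was left out. This gave 634 regions of 8819 in the series, 168 of them in cluster II and 466 in cluster III. Of the 4583 regions of the enhancer list, 713 had the start-window value. Of these, 57 in clusters II and III lay on the short arm, and 22 were in cluster I, 3 of them on the short arm.

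The cells were NT2/D1, a pluripotent human line from an embryonal carcinoma, which all-trans retinoic acid (ATRA) drives to differentiate. The chromatin immunoprecipitation sequencing libraries used were H3R2me2a in CRISPR/Cas9 control cells grown with 1 µM ATRA for 3 days (cluster III and the enhancer and promoter lists) and H3R2me2a in CRISPR/Cas9 control cells without ATRA (clusters I and II), with 1 library each. Both carry the CRISPR/Cas9 control genotype, and the antibody was a rat monoclonal made in the laboratory. The other 20 of 22 samples, which include PRMT6-deleted cells and antibodies to 3 other histone marks and IgG, were not analysed here. Each region had a column named tagcount, and cluster III regions also had MACS tags from the ATRA library. No source used here names the library behind tagcount, but at cluster I regions, which belong to the library without ATRA, MACS tags were nearly equal to it (median ratio 0.943, n = 181). Depths are unknown and neither column was scaled, so a ratio above 1 by itself does not show a gain. With no replicates there is no test. Intervals are 95% and cover counting error only, and more marked cells and more mark per cell cannot be told apart.

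H3R2me2a is placed mainly by PRMT6, and the modification is known for counteracting trimethylation of lysine 4 on the same histone tail, the mark of active promoters. Promoters and enhancers are usually separated by their lysine 4 methylation, high trimethylation at promoters and high monomethylation with little trimethylation at enhancers. Annotated starts are of several kinds: main promoters of protein-coding genes, which mostly lie in CpG islands, alternative starts inside genes, starts of long non-coding RNAs, and starts of small RNA genes with short dedicated promoters. No source used here states how the authors separated their classes.

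As examples of the starts these regions lie at, 5 promoter windows are given first, followed by 1 window of the promoter class for comparison. All come from RefSeq (GRCh38.p14), run 5′ to 3′ on the strand of the gene, cover 250 bases before and 50 after the start, and have every CG dinucleotide in capitals. The first is at NOS3, endothelial nitric oxide synthase, the next at the long non-coding RNA ZNF503-AS2, and the others at the homeobox genes HOXA2 and HOXB1 and at STRA6, the receptor for retinol-binding protein. The last, KMT2A, a lysine 4 methyltransferase of histone H3, had the highest tagcount of the promoter-class regions whose nearest start matched a RefSeq window.
NOS3 (chr7:150993554-150993853, +): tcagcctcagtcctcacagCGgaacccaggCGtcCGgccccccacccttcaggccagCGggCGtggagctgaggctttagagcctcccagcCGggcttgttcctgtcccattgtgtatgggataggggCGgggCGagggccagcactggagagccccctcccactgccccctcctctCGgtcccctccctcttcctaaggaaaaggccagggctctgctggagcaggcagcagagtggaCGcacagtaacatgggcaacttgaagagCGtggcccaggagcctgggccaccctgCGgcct
ZNF503-AS2 (chr10:75403915-75404214, +): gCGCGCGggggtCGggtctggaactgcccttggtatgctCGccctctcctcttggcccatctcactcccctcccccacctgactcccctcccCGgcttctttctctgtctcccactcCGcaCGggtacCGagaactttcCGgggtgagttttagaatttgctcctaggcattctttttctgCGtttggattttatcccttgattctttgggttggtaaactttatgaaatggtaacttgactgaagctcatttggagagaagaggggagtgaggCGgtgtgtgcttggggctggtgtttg
HOXA2 (chr7:27102634-27102933, -): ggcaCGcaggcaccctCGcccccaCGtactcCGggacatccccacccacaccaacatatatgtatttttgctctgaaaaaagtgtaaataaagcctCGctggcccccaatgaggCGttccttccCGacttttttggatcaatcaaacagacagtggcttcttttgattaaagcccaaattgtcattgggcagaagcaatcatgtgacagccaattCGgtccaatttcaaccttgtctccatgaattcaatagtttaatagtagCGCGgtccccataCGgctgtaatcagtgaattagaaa
HOXB1 (chr17:48530962-48531261, -): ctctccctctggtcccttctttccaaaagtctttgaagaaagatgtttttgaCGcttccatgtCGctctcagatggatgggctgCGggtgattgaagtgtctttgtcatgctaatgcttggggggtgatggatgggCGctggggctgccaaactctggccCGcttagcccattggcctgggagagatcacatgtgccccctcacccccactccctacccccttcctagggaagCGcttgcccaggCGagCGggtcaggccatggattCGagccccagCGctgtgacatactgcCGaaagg
STRA6 (chr15:74209656-74209955, -): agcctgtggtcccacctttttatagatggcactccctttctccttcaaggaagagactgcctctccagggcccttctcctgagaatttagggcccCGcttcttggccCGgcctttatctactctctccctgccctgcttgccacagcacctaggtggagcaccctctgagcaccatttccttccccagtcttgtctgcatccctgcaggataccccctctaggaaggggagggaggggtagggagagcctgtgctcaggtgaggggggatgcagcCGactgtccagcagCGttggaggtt
KMT2A (chr11:118436242-118436541, +): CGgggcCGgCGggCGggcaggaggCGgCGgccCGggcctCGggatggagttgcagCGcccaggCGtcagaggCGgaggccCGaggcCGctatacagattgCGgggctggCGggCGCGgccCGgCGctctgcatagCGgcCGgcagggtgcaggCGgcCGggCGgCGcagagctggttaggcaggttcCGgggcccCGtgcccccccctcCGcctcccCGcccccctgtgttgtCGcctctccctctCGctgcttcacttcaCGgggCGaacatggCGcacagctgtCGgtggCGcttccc

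The enhancer-class windows held 12 CG dinucleotides at NOS3, 12 at ZNF503-AS2, 11 at HOXA2, 11 at HOXB1 and 4 at STRA6, against 36 in the promoter-class window of KMT2A. Another RefSeq window of ZNF503-AS2, at a second start met by the set and not printed, held 19 and had a CpG observed over expected of 0.777. CpG observed over expected, the CG count set against what the C and G content would give at random order, was 0.361 at NOS3, although 66.7% of that window was G or C. It was 0.542 at ZNF503-AS2, 0.706 at HOXA2, 0.436 at HOXB1 and 0.154 at STRA6, against 0.826 at KMT2A.

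Over all starts that could be read, values were also lower than in the promoter class. The printed windows lean to the CpG-poor side of the set, as only that of HOXA2 is above 0.6. A RefSeq window starting within 50 bp of the nearest transcript was found for 143 of the 634 regions, in 131 distinct windows. Median CpG observed over expected was 0.55 (0.426 to 0.706) for these 131 windows, against 0.866 (0.858 to 0.872) for 2033 windows of promoter-class start regions and 0.579 for all 35116 windows of the table. Of the 131 windows, 52.7% (43.8 to 61.5) had a value below 0.6, against 5.36% (4.42 to 6.43) in the promoter class and 51.1% of all windows. Matched starts at the enhancer-class regions therefore had a CpG spread like that of the whole table, with both CpG-poor and CpG-rich windows. Those of the promoter class were almost all CpG-rich. The likeness to the table depends on this matching. Over all 327 windows matched by gene the median was 0.664 (0.588 to 0.713), above the 0.579 of all windows and below 0.861 in the promoter class. By cluster the medians at matched starts were 0.625 (0.446 to 0.807, n = 39) in cluster II and 0.516 (0.37 to 0.706, n = 93) in cluster III, and their intervals overlap.

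**Figure D1:**
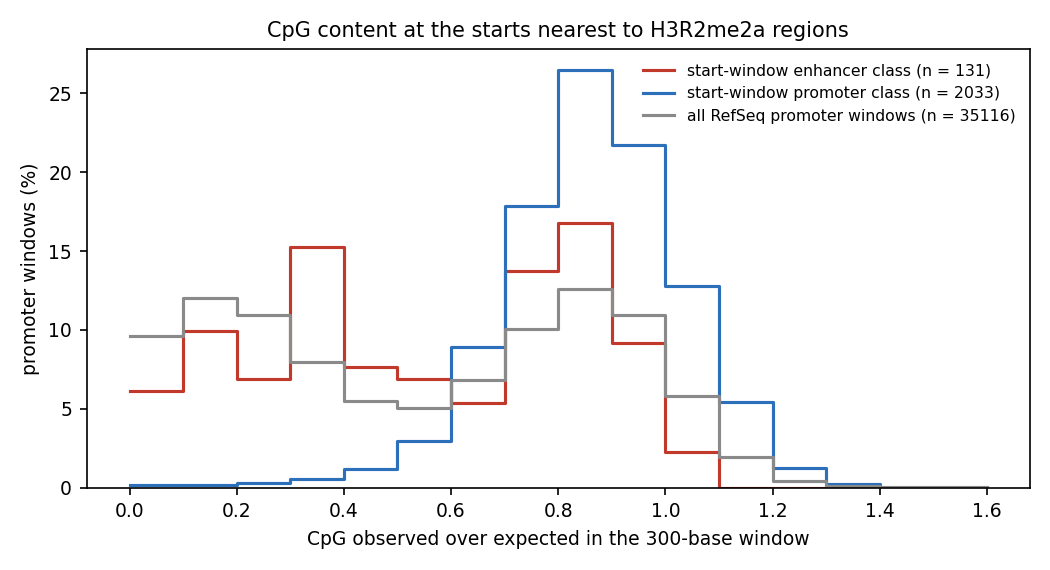
Share of RefSeq promoter windows (vertical axis, percent) by CpG observed over expected in bins of 0.1 (horizontal axis), for windows at starts nearest to enhancer-class start-window regions (red), promoter-class start-window regions (blue) and all windows (grey). The red line has a low and a high group like the grey line, and the blue line has 1 peak near 0.866.

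Motifs were searched on both strands of the same windows. The GC box GGGCGG was in 47.3% (38.5 to 56.2) of the 131 windows, against 68.4% (66.3 to 70.4) in the promoter class and 45% of all windows. TATAAA was in 9.16% (4.82 to 15.5), against 5.61% (4.65 to 6.7) in the promoter class and 11.5% of all, and the STRA6 window above has 1. CCAAT was in 31.3%, against 36.3% in the promoter class and 34.6% of all, and the HOXA2 window has 4. The octamer ATGCAAAT, which OCT factors bind, was in 1 of the 131 windows (0.763%, 0.0193 to 4.18). It was in 1.13% of windows in the promoter class and 1.77% of all, and both shares lie inside that interval. A pair of AGGTCA in the same direction with 5 bases between, a motif of retinoic acid receptors, was in none of the 131 and in 2 of all 35116 windows.

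Most of the nearest genes were protein-coding, but far fewer than at promoter-class starts. Protein-coding genes were nearest to 380 of the 634 regions (59.9%, 56.0 to 63.8), against 88.6% of 3759 promoter-class start-window regions and 45.3% of 3394 enhancer-class regions outside start windows. Long non-coding RNA genes were nearest to 170 (26.8%, 23.4 to 30.4), against 8.11% in the promoter class and 26.6% outside start windows. Small nuclear, nucleolar and Y RNA genes were nearest to 40 (6.31%), against 1.09% and 4.92% in these sets. The remaining regions lay at 21 pseudogenes, 8 microRNA genes, 6 genes or copies of 5S, 7SL or 7SK RNA, and 9 genes of unmatched type.

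**Figure D2:**
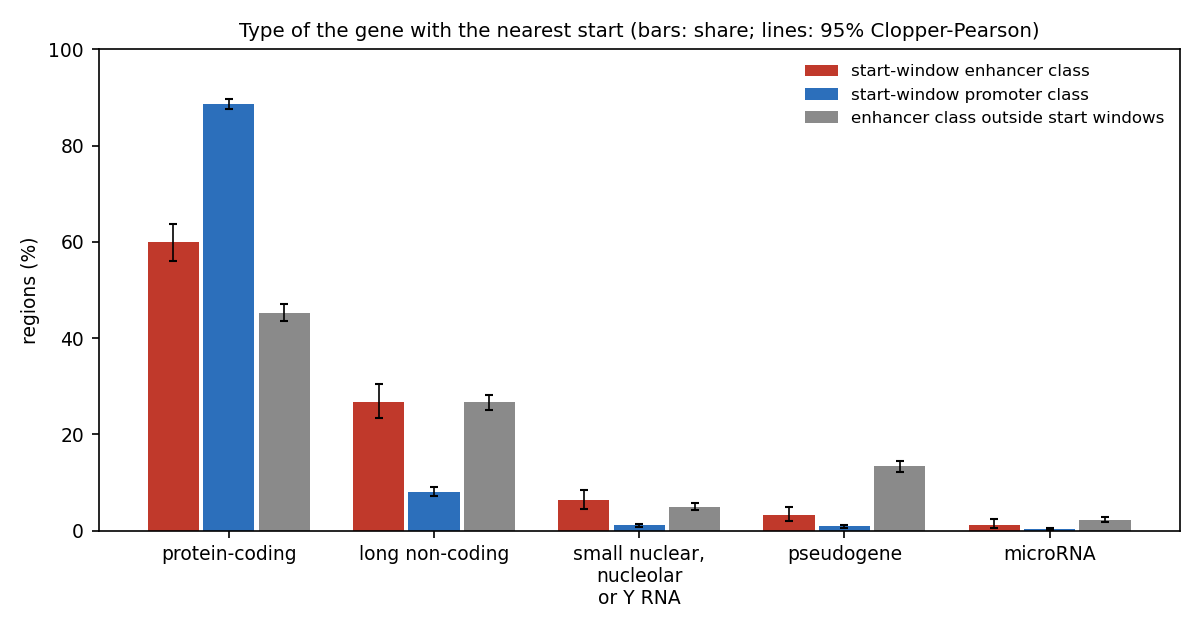
Share of regions (vertical axis, percent, with 95% Clopper-Pearson intervals) by type of the nearest gene, for enhancer-class regions inside start windows (red, n = 634), promoter-class regions inside start windows (blue, n = 3759) and enhancer-class regions outside them (grey, n = 3394). Protein-coding shares are 59.9%, 88.6% and 45.3%, and the red long non-coding bar of 26.8% stands beside a grey one of 26.6%.

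The protein-coding genes were often met at a secondary start. For 363 of the regions the nearest transcript belonged to a protein-coding gene and could be placed in GENCODE 44. In 214 of these (59%, 53.7 to 64.1) that transcript began more than 1 kb inside the outermost start of its gene, against 17.1% (15.8 to 18.4) of 3081 promoter-class regions. The median offset was 4508 bp, against 31 bp in the promoter class. The share was 46.5% (36.4 to 56.8) in cluster II and 63.6% (57.5 to 69.4) in cluster III. At RARA, the retinoic acid receptor alpha gene, the nearest start lay 42207 bp inside the gene, and at MEIS2, a homeobox gene, 204149 bp.

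Within the start window the regions were spread out. The median distance to the start, without sign, was 421 bp, against 62 bp in the promoter class, and 38.5% (34.7 to 42.4) lay within 250 bp, against 86.5% (85.4 to 87.6). Regions upstream of the start made up 56.0% (52.0 to 59.9), against 61.1% (59.5 to 62.7) in the promoter class. No source used here states from which point of a region the authors measured distance. By the distance column, 76 regions lay beyond 1250 bp, up to 1849 bp.

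Cluster II and cluster III regions differed in position. Cluster II regions had a median unsigned distance of 222.5 bp, and cluster III regions 543.5 bp. Within 250 bp lay 53.6% (45.7 to 61.3) of cluster II and 33.0% (28.8 to 37.5) of cluster III. In the promoter class these medians were 58 bp and 66 bp.

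**Figure D3:**
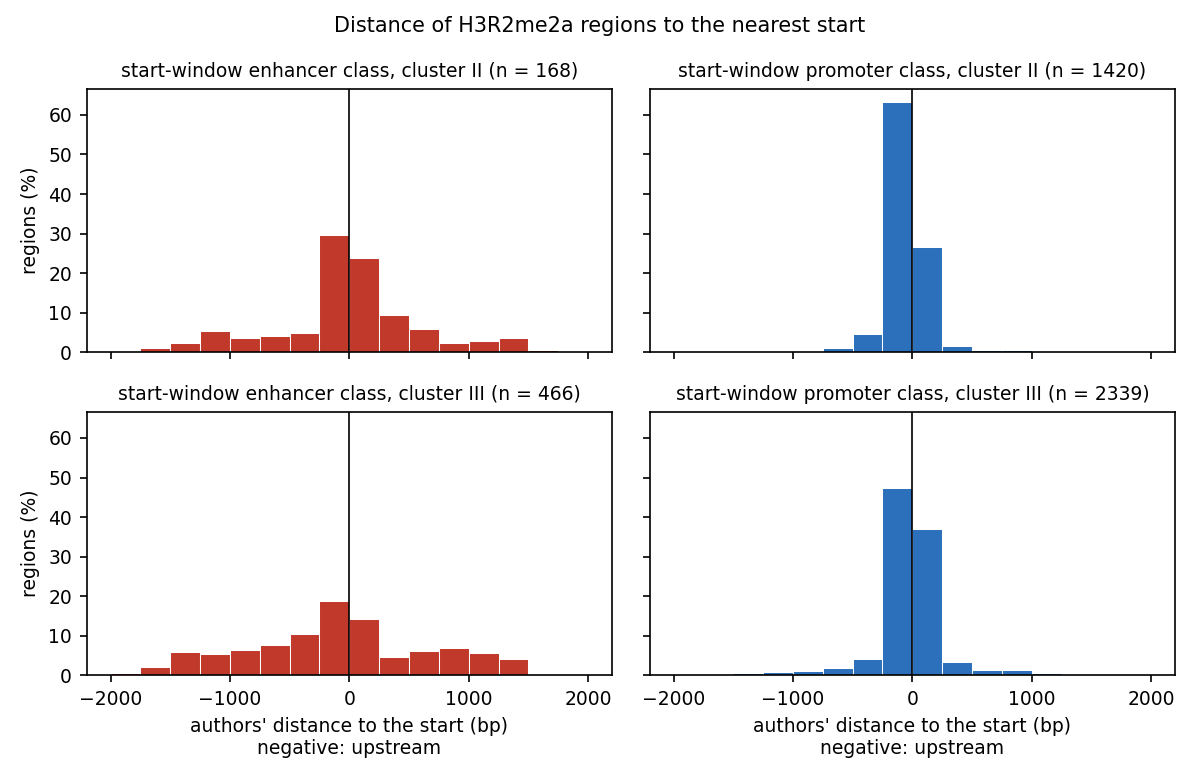
Share of regions (vertical axes, percent) in 250 bp bins of signed distance to the nearest start (horizontal axes, bp, negative is upstream), for enhancer-class start-window regions (left, red) and promoter-class ones (right, blue), with cluster II above and cluster III below. The promoter class stands within 250 bp of the start, and the enhancer class reaches past 1000 bp on both sides, in cluster III more than in cluster II.

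At the outer edge, the regions farthest inside were at RP11-150O12.1 (1849 bp upstream), at PCBP3 (1814 bp upstream) and at the 7SK copy RN7SKP43 (1791 bp upstream). The nearest enhancer-class regions left outside were at LINC00208 (1355 bp upstream), RBM38 (1439 bp upstream) and JUNB (1454 bp upstream). The ranges cross, so the position value was not set by the distance column alone.

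Cluster membership lay between that of the neighbouring sets. Cluster II held 26.5% (23.1 to 30.1) of the regions, against 37.8% (36.2 to 39.3) of promoter-class start-window regions and 11.9% (10.8 to 13.0) of enhancer-class regions outside start windows. Cluster II held no region under 35 tags, and among regions with a tagcount at or above the median of the enhancer list its share was 46.2% (40.9 to 51.4), against 47.2% (45.4 to 49) and 28.1% (25.8 to 30.5) in these sets. Median width over both clusters was 506 bp (493 to 516), against 526 bp (520 to 533) in the promoter class and 493 bp (487 to 498) outside start windows. Tagcount in cluster II had a median of 79.5 tags per region (68 to 92), against 74 and 56 tags in these sets. Per kb of region the medians were 143.5 tags (131.9 to 159.9), against 138.5 and 121 tags.

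Small RNA genes carried much of the top of cluster II. They were nearest to 28 of the 168 cluster II regions (16.7%, 11.4 to 23.2) and to 12 of the 466 in cluster III (2.58%, 1.34 to 4.45). By tagcount they took 5 of the first 10 places in cluster II and 13 of the first 20, and by tags per kb 6 of the first 10 and 11 of the first 20. The 28 regions had a median of 232.5 tags per kb (177.7 to 278.8), against 136.1 (121.1 to 145.9) for the other 140 regions of cluster II. The 29 cluster II regions of the promoter class at such genes had a median of 235.2 tags per kb (155.4 to 297.9). The intervals of the enhancer and promoter classes at small RNA genes overlap widely.

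These small RNAs act in splicing and in ribosomal RNA processing. RNU11, whose product U11 belongs to the minor spliceosome, had the highest tagcount of all 634 regions, 466 tags (424.6 to 510.3) over 1363 bp (chr1:28974651-28976013, hg19). It is counted among the small RNA genes by the authors' name, and GENCODE 44 assigns the nearest transcript to a long non-coding RNA gene. SNORD3A, a U3 gene, had 450 tags (409.4 to 493.6), and RNU5A-1, a U5 gene, 441 tags (400.8 to 484.1). U3 guides early cleavage of the ribosomal precursor, and U5 is part of the major spliceosome. In tags per region these 3 do not differ beyond counting error, and the next, at PNPLA6 with 309 tags (275.5 to 345.4), lies below all 3 intervals. This order is not scaled by width. Per kb it is reversed, and PNPLA6, with 473.9 tags per kb, is the densest of them.

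All 6 U5 regions were in cluster II, with 205 to 441 tags, at RNU5A-1, RNU5B-1, RNU5D-1, RNU5E-1, RNU5F-1 and the copy RNU5A-8P. All 6 U3 regions were in cluster II as well, with 111 to 450 tags. U1 genes, variants and copies, which recognise the 5′ splice site, had 8 regions in cluster II with 50 to 280 tags and 2 in cluster III with tagcounts of 47 and 22. The 4 U2 regions, for the RNA that pairs with the branch point, were in cluster II with 48 to 168 tags. The lowest is LINC00910 by the authors' name and the U2 copy RNU2-4P in GENCODE 44, and the U2 copy RNU2-59P had the highest density of the whole set, 792.5 tags per kb over 212 bp. Many of these genes have near-identical copies, so the locus to which reads were assigned is uncertain.

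Other small RNA genes were divided between the clusters. SNORD118, the U8 RNA gene, had 225 tags in cluster II, as had SNHG1 with 130 tags, named so by the authors although its nearest transcript is SNORD22 in GENCODE 44. SNORD99 had 136 MACS tags (ATRA) and a tagcount of 98 in cluster III, SNORD60 had 43 and 21, and SNORD38B had 32 and 19. All 3 Y RNA regions were in cluster III, with 117 and 57 tags at one copy, 40 and 8 at another, and 37 and 9 at RNY4P1.

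The cluster II small RNA regions lay almost all downstream of the start. The authors' distance was positive for 27 of the 28, with a median of 161 bp (111 to 188). Of the other 140 cluster II regions 55 lay downstream, and their median was -40.5 bp (-67 to -13). The exception was the U2 copy RNU2-64P, 37 bp upstream. The small RNA regions were also wider, with a median of 756.5 bp (579 to 1010), against 509.5 bp (476 to 535) for the other cluster II regions. The promoter class shared these traits. Of its 29 cluster II regions at such genes 27 lay downstream, with a median distance of 132 bp and a median width of 893 bp.

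Several small RNA regions lay in gene clusters. RNU5A-1 and RNU5B-1 (441 and 255 tags) were neighbours on chromosome 15, and RNU5F-1 and RNU5D-1 (289 and 205 tags) on chromosome 1. SNORD3B-1, SNORD3B-2, SNORD3D, SNORD3A and SNORD3C lay within chr17:18965041-19093742 (hg19), with 241, 238, 111, 450 and 220 tags.

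Protein-coding genes filled most other leading places of cluster II. PNPLA6, a lysophospholipase of nerve and other cells, had 309 tags, 680 bp downstream of the start. ZNF444, a zinc finger gene, had 271 tags at 75 bp downstream, and MAMSTR, a coactivator of MEF2 factors in muscle, had 265 tags at 1403 bp upstream. HIST1H4C, a histone H4 gene, had 280 tags (248.2 to 314.8) at 26 bp. It was the only histone gene of the set (0.158%, 0.00399 to 0.876). Histone genes had 59 promoter-class start-window regions (1.57%), and 0.0589% of enhancer-class regions outside start windows. SMPD3, neutral sphingomyelinase, had 235 tags at 47 bp upstream, and NOS3 had 183 tags at 883 bp upstream. The long non-coding RNA RP11-247A12.2 had 282 tags at 1636 bp downstream.

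Chromosome 19 had the highest share of enhancer-class regions in start windows among the numbered chromosomes. It held 59 of the 634 regions, and 45% (36.3 to 54) of its 131 enhancer-class regions were in start windows, against 15.8% (13.3 to 18.4) on chromosome 1. Chromosome 17 followed with 41 of 123 (33.3%, 25.1 to 42.4), and its interval overlaps that of chromosome 19. Of the 59, 36 were in cluster II (61%, 47.4 to 73.5), against 23% (19.6 to 26.6) on the other chromosomes. The promoter class had a like split, 59.9% on chromosome 19 against 35.9% elsewhere. Chromosome 19 is the most gene-dense human chromosome, and the share of start windows in its sequence was not measured. PNPLA6, ZNF444 and MAMSTR lie there, as does a run of 4 cluster II regions at MAMSTR, RASIP1 and IZUMO1 with 108 to 265 tags (chr19:49223770-49250840, hg19).

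**Figure D4:**
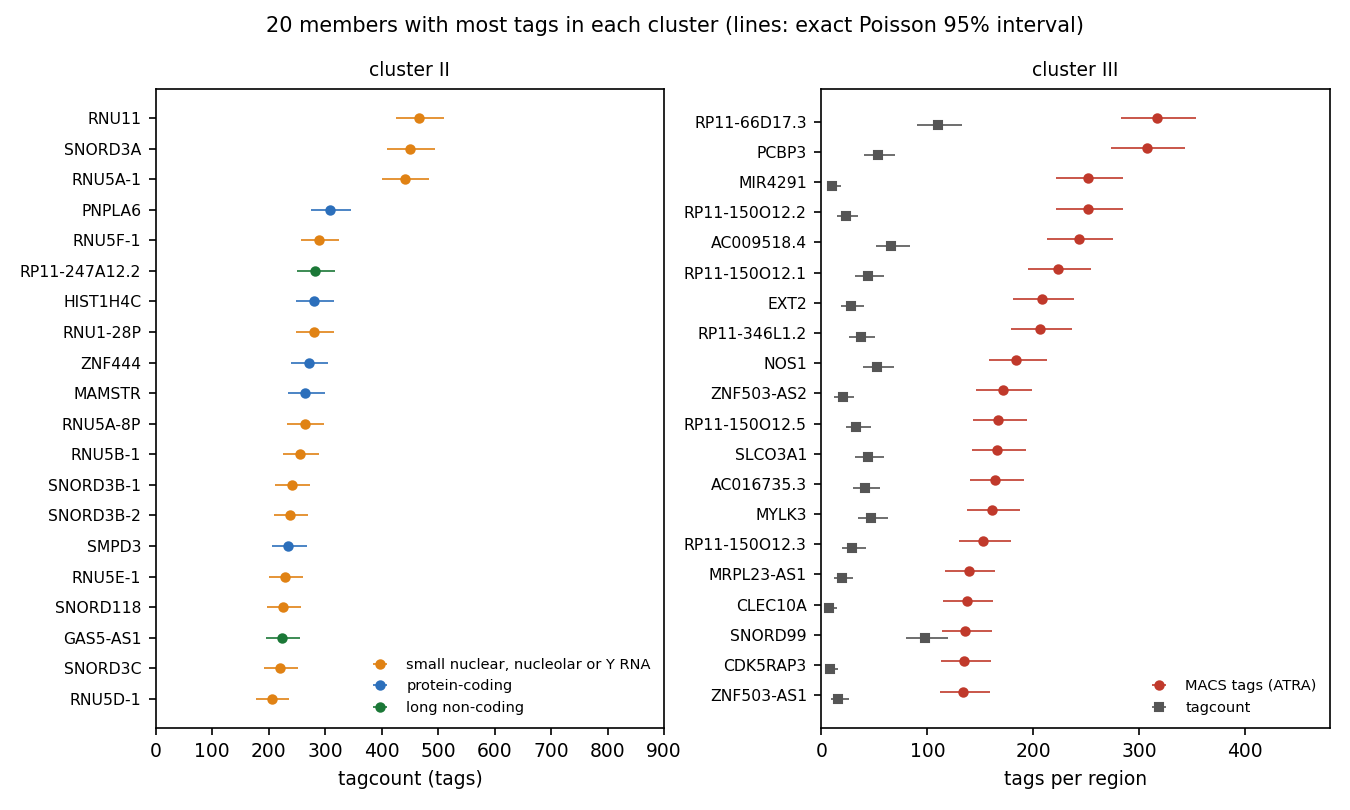
Tags per region (horizontal axes) with exact Poisson intervals for the 20 regions with the highest tagcount in cluster II (left, coloured by type of the nearest gene) and the 20 with most MACS tags in cluster III (right, MACS tags of the ATRA library in red and tagcount in grey). RNU11, SNORD3A and RNU5A-1 stand apart on the left in tags per region, which are not scaled by width. On the right MACS tags lie above tagcount for all 20, with SNORD99 the closest pair.

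In cluster III both tag counts could be compared within a region. MACS tags (ATRA) had a median of 47 (45 to 49), against 51 in the promoter class and 48 outside start windows, and tagcount had a median of 21 (19 to 22), against 29 and 18. The median ratio of MACS tags to tagcount was 2.40 (2.24 to 2.59), against 1.82 (1.80 to 1.84) in the promoter class and 2.92 (2.83 to 3.00) outside start windows. MACS tags were at least 4 times tagcount in 114 of 466 regions (24.5%, 20.6 to 28.6). Over all 6519 cluster III regions of the series the share was 17.6%, and 19% over the 5956 outside the short arm of chromosome 12. In the promoter class it was 34 of 2339 (1.45%), and outside start windows 982 of 2990 (32.8%). Cluster III is likely to have been defined on these same libraries, so the ratios describe the regions and are no evidence of a change.

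In ratio the start-window enhancer class thus lay between both comparison sets. At 8-fold the shares were 26 of 466 (5.58%), 0 of 2339 in the promoter class (exact upper bound 0.158%) and 269 of 2990 (9%) outside start windows. Over all cluster III regions the 8-fold share was 4.53%, and 4.95% without the short arm of chromosome 12. Only 8 of 466 regions had more tagcount than MACS tags.

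**Figure D5:**
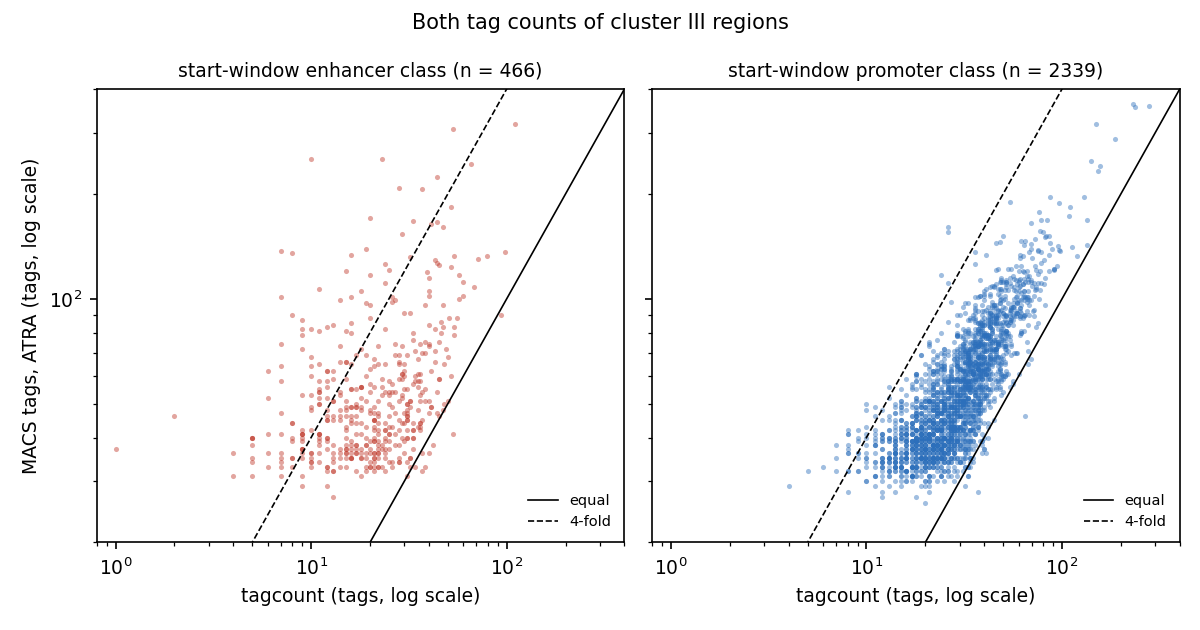
MACS tags of the ATRA library (vertical axes, tags, log scale) against tagcount (horizontal axes, tags, log scale) for cluster III regions, with 466 enhancer-class start-window regions on the left and 2339 promoter-class ones on the right. The solid line marks equal counts and the dashed line 4-fold, which 114 points on the left and 34 on the right reach or pass.

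The ratio was above that of the promoter class at each distance. It was 2.21 for 154 regions within 250 bp of the start, 2.41 for 71 regions at 250 to 500 bp, 2.87 for 127 regions at 500 to 1000 bp and 2.23 for 114 regions beyond. The promoter class had 1.82 for 1973 regions, 1.76 for 178, 1.90 for 132 and 1.80 for 56 regions at the same distances. Even next to the start, the called share was 19.5% (13.5 to 26.6), against 1.32% (0.863 to 1.92) in the promoter class. Regions at inner starts of protein-coding genes had a median of 2.42 (2.17 to 2.89, n = 168), and those at outer starts 1.99 (1.83 to 2.37, n = 96).

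Long non-coding RNA genes were nearest to 6 of the 10 cluster III regions with most MACS tags. Over all 466 regions they were nearest to 144 (30.9%, 26.7 to 35.3), and protein-coding genes to 277 (59.4%). The long non-coding share of cluster III was 27% outside start windows and 8.98% in the promoter class. The first 10 places were set by MACS tags per region, without regard to width. MACS tags per kb varied little in cluster III, with a median of 95.3 and quartiles of 85.7 and 111.4, and MIR4291 had the highest value, 316.6. The PCBP3 region was the widest, 2272 bp against a median of 497.5 bp, so these places partly follow width. RP11-66D17.3 had most tags per region, 317 MACS tags and a tagcount of 110. PCBP3, an RNA-binding protein gene, followed with 307 and 53, and AC009518.4 had 243 and 66. RP11-150O12.2, RP11-150O12.1 and RP11-346L1.2, all on chromosome 8, had 252 and 23, 223 and 44, and 206 and 37. LINC00649 (133 and 79) and AC027612.6 (130 and 71) were among the 5 highest in tagcount. EXT2, a heparan sulfate polymerase gene, had 208 MACS tags and a tagcount of 28, and NOS1, neuronal nitric oxide synthase, 184 and 52. Both were met at transcripts other than the canonical one, at EXT2 111217 bp inside the gene.

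The ZNF503 locus on chromosome 10 held 6 regions, all in cluster III, as were 73.5% of the 634 regions. ZNF503 itself is a zinc finger repressor with a role in the developing forebrain, and its antisense RNAs gave the nearest starts. At ZNF503-AS1 the 3 regions had 134, 120 and 46 MACS tags, with tagcounts of 16, 15 and 2 and ratios of 8.38, 8 and 23. At ZNF503-AS2 the 2 regions had 171 and 35 MACS tags, with tagcounts of 20 and 9. The neighbouring RP11-399K21.14 had 101 and 7. The lowest of the 6 ratios was 3.89 (1.83 to 9.20).

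The microRNA gene MIR4291 had 252 MACS tags (ATRA) and a tagcount of 10, 167 bp upstream of its start (chr9:96581076-96581871, hg19). Its ratio of 25.2 (13.5 to 53.2) was the highest after that of DPF3, and the intervals of the next ratios overlap it. Its mature sequence is given because of this place, with the seed (bases 2 to 8) in capitals, from RefSeq (GRCh38.p14, chr9:93819367-93819382, +).
hsa-miR-4291: uUCAGCAGgaacagcu
The seed was not shared by the other microRNA genes of the set that were found in the table. CLEC10A, a lectin gene of macrophages and dendritic cells, had 137 and 7 tags (19.6, 9.25 to 49.6), and CDK5RAP3 135 and 8 (16.9, 8.32 to 39.9). DPF3, a subunit of chromatin remodelling complexes, had the highest ratio from the fewest tags, 37 and 1 (ratio interval 6.24 to 1500.4), so its size is poorly known.

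The lowest ratios were near or below 1. LINC00969 had 41 MACS tags and a tagcount of 53 (0.774, 0.502 to 1.19), and a second region there 90 and 93. AC093585.6 had 32 and 37, MOV10, an RNA helicase gene, 33 and 38, and OLFML3 36 and 40. A weaker region of AC009518.4 had 38 and 42, beside the 243 and 66 tags of the region 93 bp from its start. The intervals of all these low ratios include 1.

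Genes of the retinoid pathway and HOX genes had few regions. All were in cluster III, which held 73.5% of the 634 regions. Regions at the same gene are not independent, and HOXA2 and STRA6 gave 3 each. Retinoic acid binds receptors that sit on DNA and switch on HOX genes in an order along the body axis. Of the 634 regions, 4 were at HOX genes (0.631%, 0.172 to 1.61), against 6 of 3759 in the promoter class and 3 of 3394 outside start windows. HOXA2, which patterns the hindbrain, had 3 regions, at 626 bp downstream, 259 bp upstream and 1593 bp upstream of its start. Their MACS tags were 56, 91 and 54, with tagcounts of 18, 30 and 20 and ratios of 3.11, 3.03 and 2.70. With 2 regions at HOXA-AS2, at 33 and 59 MACS tags and tagcounts of 20 and 15, they formed the run with most regions, 5 within chr7:27141449-27148047 (hg19). HOXB1, a direct retinoic acid target in the hindbrain, had 62 and 13 tags (4.77, 2.60 to 9.45).

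Of 29 genes on the retinoid list, 6 gave 8 regions (1.26%, 0.546 to 2.47), against 6 of 3759 (0.16%) in the promoter class and 12 of 3394 (0.354%) outside start windows. STRA6 had 3 of them, all at inner starts, with MACS tags of 127, 66 and 33 and tagcounts of 44, 43 and 22. RARA had 34 and 5 (6.80, 2.65 to 22.3), and MEIS2 40 and 5 (8, 3.16 to 26). MEIS1, the partner homeobox gene of HOX proteins, had 46 and 22, NRIP1, a nuclear receptor corepressor gene, 44 and 22, and NR2F2, an orphan nuclear receptor gene, 43 and 26. Thus 2 of 8 retinoid regions passed 4-fold, beside 114 of all 466.

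Of 38 neural lineage genes, 4 had 5 regions (0.789%, 0.257 to 1.83), against 0.106% (0.029 to 0.272) in the promoter class and 0.354% outside start windows. ZIC5 had 39 and 24 tags at 294 bp upstream and 51 and 50 tags at 1330 bp upstream. SOX1, an early neural factor, had 45 and 21, and EN1, a midbrain factor, 37 and 14. PAX7 had a tagcount of 36 in cluster II. Signalling genes had 4 regions (0.631%, 0.172 to 1.61), a share like those of the promoter class (0.505%) and of regions outside start windows (0.678%). Of the 4, FGF3, a fibroblast growth factor, had 64 and 10 (6.40, 3.26 to 14) and CTNNB1, the beta-catenin gene, 65 and 11 (5.91, 3.09 to 12.4). ETV4 had 82 and 24, and BMP1 35 and 18. Of 21 mesoderm and endoderm genes, 2 were found, GATA4 (43 and 15) and PROX1 (35 and 21). Their share was 0.315% (0.0382 to 1.13), against 0.0532% in the promoter class and 0.177% outside start windows. For each of these lists the intervals of the sets overlap.

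No region was at any of the 30 genes of the pluripotency list (exact upper bound 0.58%), against 5 of 3759 (0.133%) in the promoter class and 8 of 3394 (0.236%) outside start windows. Both of these shares lie below that bound, so a difference was not detectable at this number of regions. The count also depends on the rule of the set. POU5F1, a gene of the list, had a start-window region of the enhancer list, which was left out because it lay in cluster I. Genes of any list on the short arm of chromosome 12 could not give a region in these sets. None was at a ribosomal protein gene, against 62 promoter-class regions (1.65%). Numbered ZNF genes gave 11 (1.74%, 0.869 to 3.08), against 170 (4.52%) in the promoter class and 19 of 3394 (0.56%) outside start windows. Of 10 cell cycle genes, 1 was found (0.158%, 0.00399 to 0.876), against 0.0266% in the promoter class and 0.0589% outside start windows. It was CDKN2C, an inhibitor of CDK4 and CDK6, with a tagcount of 61 in cluster II, 767 bp downstream of its start.

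The regions stood mostly alone. Of 590 gene names, 550 had 1 region, 36 had 2 and 4 had 3 (HOXA2, RNF220, STRA6 and ZNF503-AS1). RNF220, a ubiquitin ligase gene, had 71, 58 and 36 MACS tags, with tagcounts of 34, 35 and 15. Only PIK3C2B, RP11-443B7.1 and YPEL4 had regions in both clusters. At YPEL4 the cluster II region, 49 bp upstream of the start, had a tagcount of 87, and the cluster III region, 1452 bp upstream, had 102 MACS tags and a tagcount of 60. A promoter-class region lay within 5 kb of 52 regions (8.20%, 6.19 to 10.6), against 1.80% (1.38 to 2.30) of enhancer-class regions outside start windows. This contrast follows at least in part from how the sets were chosen. Median unsigned distance to a start was 421 bp in the set and 62 bp in the promoter class, against 13843 bp outside start windows. The nearest gene name also had a promoter-class region in 12.8% (10.3 to 15.6), against 12.3% (11.2 to 13.4). Another region of the set lay within 5 kb of 81 (12.8%), and 40 regions fell into 12 runs of 3 or more with gaps up to 20 kb.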

How the data were processed

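H3R2me2a chromatin immunoprecipitation sequencing gave 5 region lists from 2 libraries. The values deposited by the authors are unscaled counts of tags in each region (MACS tags and tagcount, per the file headers). The submitters' processing notes name bcl2fastq, Bowtie2, MACS 1.4, deepTools and build hg19, without roles. No source used here states the sequencing depth or the criteria of clusters and classes.

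Lists were joined on chromosome, start and stop with pandas 2.3.3 under Python 3.11.15. Shares carry exact Clopper-Pearson intervals, single counts exact Poisson intervals, ratios exact conditional intervals and medians order-statistic intervals (scipy 1.17.1, 95%). A region was called when MACS tags reached 4 times tagcount, and 2-fold and 8-fold were tried as alternatives. The interval and motif functions were tested on simulated data. Gene types came from GENCODE 44 by transcript identifier for 591 of 634 regions, and by gene name there or in RefSeq for 31, with 12 unmatched. Names in the form of a small RNA gene set the type first, also for 3 of the unmatched, which left 9 without one. Start offsets and promoter windows were read on GRCh38 only and never set against hg19 coordinates. Of 634 regions, 353 matched a promoter window by gene and 143 by start.

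Members and gene lists were chosen with earlier results of these data known. Named regions are the 10 highest by tagcount (cluster II) and by MACS tags (cluster III), the 5 highest and lowest ratios and 5 highest tagcounts of cluster III, genes with 3 or more regions or regions in both clusters, gene-list members and those at the window edge. SMPD3, NOS3, the further small RNA genes and RP11-399K21.14 were named after their values were seen, and the inner-start and matched-start comparisons and those without chromosome 8, chromosome 19 or small RNA genes were also added then. No p-values were computed, with 1 library per condition.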

Additional observations from a re-analysis of the deposited data

Results flagged for a closer look

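Of the start-window regions of the enhancer list, 22 lay in cluster I, deposited with the library without ATRA, and were not among the 634 regions. Those outside the short arm of chromosome 12 entered only the check of tagcount at cluster I. They stand out as signal outside the main measurement. Their MACS tags in that library reached 82 at TIMP4, a metalloproteinase inhibitor gene, with 73 at GRHL3, an epithelial transcription factor, 70 at POU5F1, the pluripotency factor OCT4, and 68 at KDM2B, a demethylase that binds unmethylated CpG. The median was 37.5 and the lowest 31.

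Each cluster II region also carried a second interval that was not used. These had a median width of 643 bp, against 522 bp for the first interval, were wider in 136 of 168 regions and overlapped the first in all 168. No source used here says what the second interval stands for.

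On the left-out short arm of chromosome 12, 53 cluster III regions of this kind had 30 to 670 MACS tags, with a median of 67.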

How the results depend on the processing

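Of 30 alternatives to the main results, 18 stayed within the interval of the reported value (within 1.5 times, for counts). The cluster II share moved to 46.2% among regions with a tagcount at or above the enhancer-list median, where the promoter class had 47.2% and the intervals overlap, and to 33.6% within 500 bp of a start. It was 23% without chromosome 19, 23.6% without small RNA genes and 24.9% with the short arm of chromosome 12 kept. Median width was 540 bp in the high-tagcount regions. The median ratio was 1.90 with 10 tags added to both counts (1.61 in the promoter class and 2.19 outside start windows) and 2.88 among regions with MACS tags at or above the cluster III median. Its order among the sets held in these alternatives. At 2-fold 295 regions were called and at 8-fold 26. A promoter-class region lay near 3.15% of regions at 2 kb and 20.3% at 20 kb. Median CpG observed over expected was 0.664 over all 327 windows matched by gene, and 0.55 where the start matched. Gene-list regions numbered 36, and 18 at high tagcount. No paired analysis was possible because each condition had 1 library. Low tagcounts limit single ratios, and unknown depth limits any statement on gain.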
